A study of Homo sapiens with 6 samples.

Results

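The 40 genes described here encode the machinery with which the endoplasmic reticulum (ER) takes in, folds and disposes of secretory and membrane proteins. They were taken by name, as rows of the deposited count table whose gene name equals a listed symbol, and all 40 were found among its 58735 rows. The list was drawn up with earlier results of these data known. All 40 passed the filter on low counts, and 16210 genes passed it in all. By role they fall into the BiP and GRP94 chaperone system (11 genes), the lectin chaperones with their glycan check (4), disulfide formation (7), the translocon (5) and ER-associated degradation, or ERAD (13).

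Proteins enter the ER through the SEC61 channel and meet BiP, an ATP-driven chaperone that J-domain cochaperones and nucleotide exchange factors regulate. Glycoproteins are held by the lectins calnexin and calreticulin, protein disulfide isomerases place disulfide bonds with oxidising power from ERO1, and proteins that fail to fold are passed back to the cytosol for degradation through the SEL1L and HRD1 complex. Many of these genes are known targets of the unfolded protein response, in which ATF6 and XBP1 bind promoter elements called ERSE.

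The series compared cultures of BE(2)-C, a human neuroblastoma line by its labels, after lentiviral infection and puromycin selection. The control cells carried a non-silencing hairpin (NS, 3 libraries, genotype given as Wildtype). The other cells carried a hairpin against ACSS2, the acetyl-CoA synthetase of nucleus and cytosol (shACSS2, 3 libraries, genotype given as ACSS2 deficiency). The titles write siACSS2 and 1 phrase of the treatment text writes shNgBR for the established lines, so the reagent is described inconsistently. No library is said to come from a separate culture or clone, and the p-values therefore measure the spread between these libraries, which may be technical.

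Libraries held 16617885 to 20831599 counts. ACSS2 stood at 366, 387 and 438 counts in NS and 75, 84 and 110 in shACSS2 (log2 change, that is the log2 of the fold from NS to shACSS2, −1.94 with SE 0.145; edgeR quasi-likelihood fit, adjusted p = 1.95e-06 by Benjamini-Hochberg). Of 12 sympathoadrenal markers, 6 reached 1 CPM (counts scaled to a common library total) in some library, and PHOX2A and TH had 0 counts in all 6 libraries. The summed level of those markers was 41.3 to 46.3 CPM in NS and 41.8 to 49.3 CPM in shACSS2. The sum rests mainly on GATA3 and ISL1 and covers markers that differed in opposite directions without overlap: ISL1 was at 12.3 to 14.1 CPM in NS and 16.8 to 19.5 in shACSS2, CHGA at 1.70 to 2.28 and 0.301 to 0.772, CHGB at 1.80 to 2.45 and 0.842 to 1.31, and MYCN at 1.58 to 2.12 and 0.421 to 0.993. Fibroblast or mesenchymal markers summed to 102 to 118 CPM in NS and 84.8 to 101 CPM in shACSS2, with COL1A2 at 0. That sum rests mainly on FN1 and COL1A1 and also covers markers that differed in opposite directions without overlap. FN1 was at 68.8 to 79.2 CPM in NS and 46.8 to 56.5 in shACSS2, and LUM at 1.78 to 2.49 and 4.96 to 6.86. Haematopoietic markers summed to at most 3.46 CPM, with HBB at 0. The part of these markers in the results was not tested. Library shACSS2 replicate 1 stood apart: across genes, its deviation from its group mean had a Spearman correlation of −0.603 with transcript GC content, against 0.475 and 0.388 in shACSS2 replicates 2 and 3.

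Of the 40 genes, 13 rose and 2 fell in shACSS2 (edgeR quasi-likelihood test, adjusted p below 0.05 over all genes), and 25 did not pass. Among all genes tested, 7.48% were higher and 9.64% lower by the same rule. As the members were listed with earlier results of these data known, the comparison with these shares describes and does not test. The median log2 change of the 40 was 0.21, and that of all genes tested was 0.002. CPM of single genes below are over library sizes scaled for composition (TMM factors). NS and shACSS2 libraries were separate in CPM, without overlap, for 23 members, 19 higher and 4 lower, where 17.6% of all genes were higher and 18.7% lower without overlap. Together the 40 genes took 0.661, 0.678 and 0.651% of the counts in the NS libraries and 0.831, 0.789 and 0.794% in the shACSS2 libraries. In bulk RNA, a change in the cells present and a change in RNA per cell cannot be told apart.

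**Figure D1:**
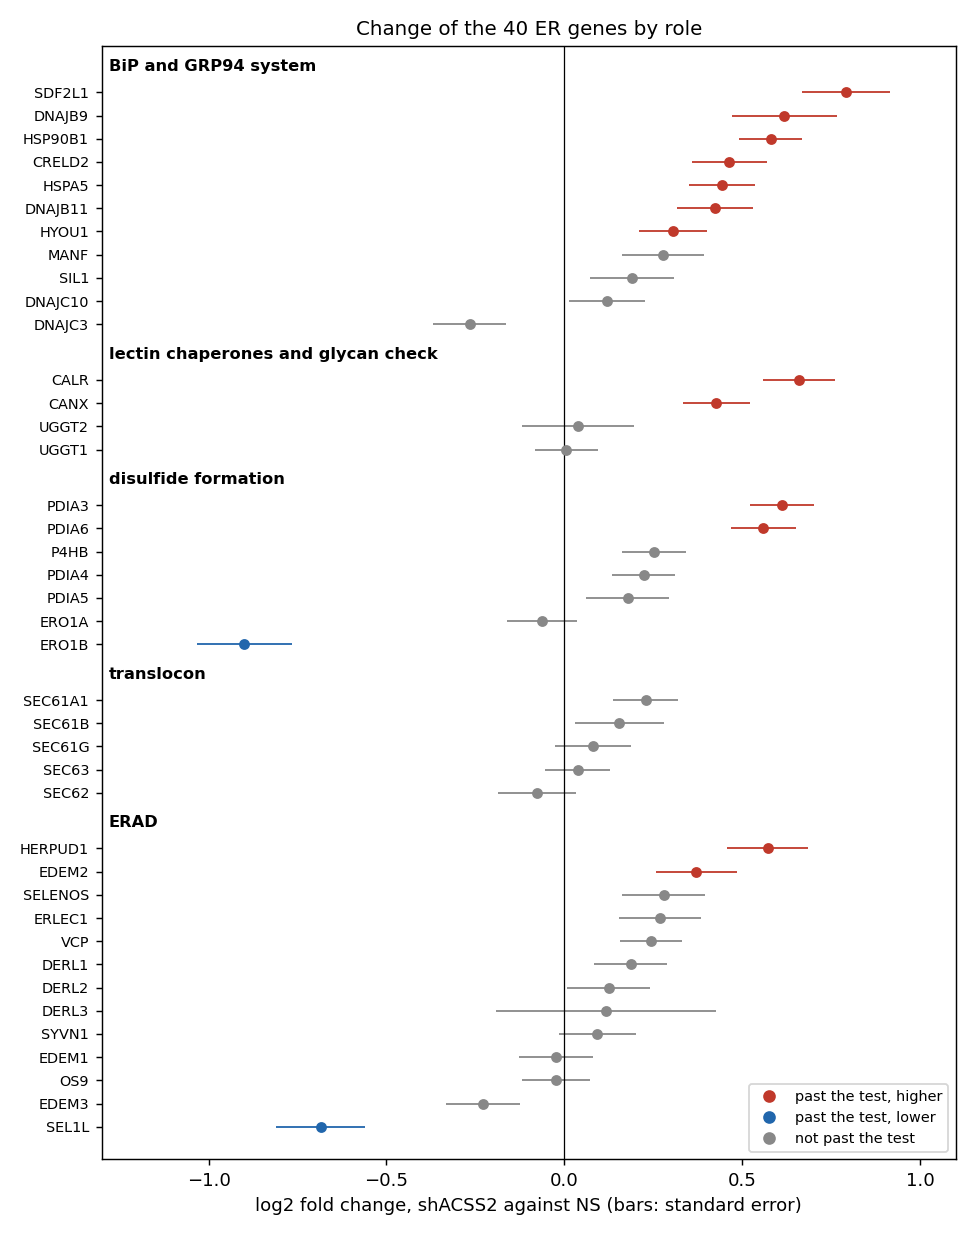
Log2 change of each of the 40 genes (shACSS2 against NS; point, fitted value; bar, SE; n = 3 libraries per group), ordered within 5 role groups. Of the 13 rises 7 are in the BiP and GRP94 system, no translocon gene passed the test, and ERO1B and SEL1L lie below −0.6.

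The promoter elements of the unfolded protein response are shown first, because the values of the members are set beside them below. The ERSE is CCAAT and CCACG separated by 9 bases, and the ERSE-II is ATTGG and CCACG separated by 1 base. Both were searched on both strands of RefSeq promoter windows (250 bases before to 50 after the annotated start, GRCh38.p14), which were found for 37 of the 40 genes. DERL1, DERL3 and PDIA3 had no entry. For HSP90B1, CANX and CRELD2 the matches lie downstream of the outermost start in GENCODE v29, since the RefSeq start differs. Windows of 6 members held an ERSE and those of 3 held an ERSE-II, 9 in all. Each match is printed 5′ to 3′ on its own strand with 5 bases on either side, and capitals mark the fixed bases of the element.

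HSPA5, ERSE, chr9:125241386-125241414, minus strand: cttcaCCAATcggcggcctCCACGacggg
HSP90B1, first ERSE, chr12:103930211-103930239, plus strand: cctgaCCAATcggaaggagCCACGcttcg
HSP90B1, second ERSE, chr12:103930316-103930344, minus strand: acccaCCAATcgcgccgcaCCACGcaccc
CALR, ERSE, chr19:12938379-12938407, minus strand: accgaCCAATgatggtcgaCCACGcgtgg
CANX, ERSE, chr5:179698773-179698801, plus strand: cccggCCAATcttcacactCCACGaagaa
CRELD2, ERSE, chr22:49918549-49918577, minus strand: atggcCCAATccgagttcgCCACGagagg
ERO1B, ERSE, chr1:236282178-236282206, plus strand: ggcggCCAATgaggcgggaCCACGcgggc
HYOU1, first ERSE-II, chr11:119057375-119057395, plus strand: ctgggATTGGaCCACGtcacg
HYOU1, second ERSE-II, chr11:119057269-119057289, plus strand: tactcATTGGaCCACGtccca
HERPUD1, ERSE-II, chr16:56932020-56932040, plus strand: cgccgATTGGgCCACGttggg
SDF2L1, ERSE-II, chr22:21642109-21642129, minus strand: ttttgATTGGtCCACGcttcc

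An ERSE or ERSE-II was present in the windows of 8 of the 12 rising members with an entry, in 1 of the 2 that fell (ERO1B) and in 0 of the 23 that did not pass the test. In the windows of all genes tested, 26 of 11161 (0.233%) held either element, and in those of 94 other ER genes 1 did (1.06%). Of the 17 tested genes with either element outside the 40, 2 rose, 2 fell and 13 did not pass (median log2 change 0.13). The median log2 change was 0.45 in the 6 members with an ERSE, 0.57 in the 3 with an ERSE-II and 0.14 in the 28 with neither. The rising members without either element in these windows were DNAJB9, DNAJB11, PDIA6 and EDEM2. The windows of DNAJB9, DNAJB11 and PDIA6 lie downstream of the outermost GENCODE v29 start, as do those of some members that did not pass, SIL1 among them. Bases before that start were not searched, so absence of an element there is not shown. A different element, UPRE (TGACGTGG), was present in the windows of 4 of 37 members, DNAJC10, SEC62, VCP and HYOU1, and in 0.941% of the windows of genes tested. A match describes the letters of a window and not the binding of a factor. These elements are long-known features of this gene family, so their presence in the chaperone genes themselves is no result of these libraries.

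**Figure D2:**
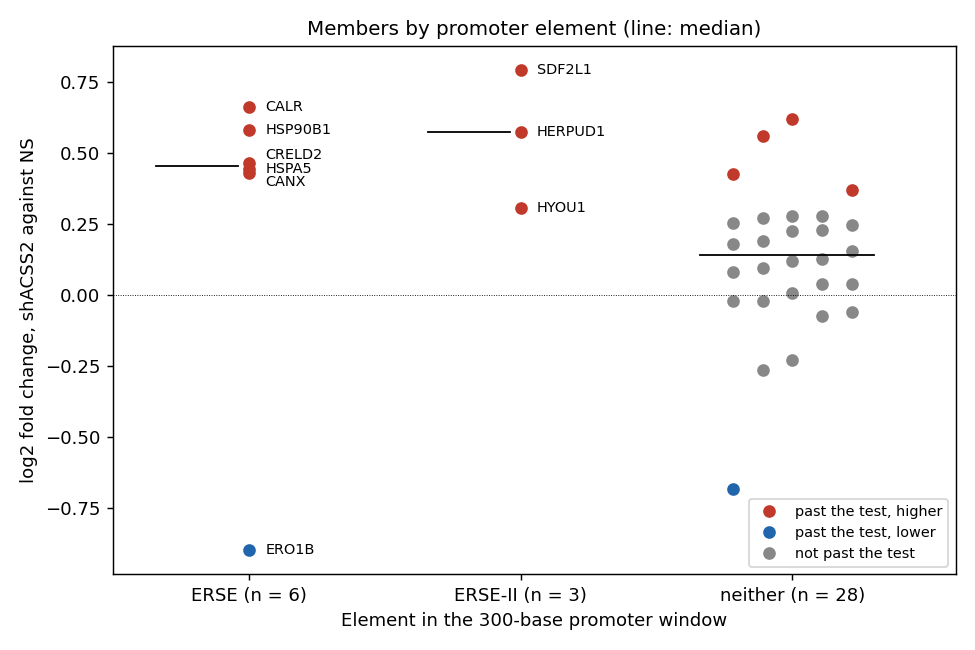
Log2 change (shACSS2 against NS) of the 37 members with a promoter entry, by element in the 300-base window; each point is 1 gene, lines are medians and colours give the test result. Of the 9 genes with an ERSE or ERSE-II, 8 lie above 0.3 and ERO1B lies at −0.90.

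In the BiP and GRP94 system, 7 of 11 genes rose, 0 fell and 4 missed the threshold, with a median log2 change of 0.42. HSPA5 (BiP; ENSG00000044574, chromosome 9, 125234853 to 125241330, minus strand, GRCh38), whose promoter holds the ERSE shown above, had 9111, 10134 and 9746 counts in NS and 10897, 11096 and 12291 in shACSS2. Its normalised level rose from 501 ± 45.6 to 682 ± 5.65 CPM (mean ± SD of 3 libraries each; log2 change 0.44, SE 0.0935; edgeR adjusted p = 0.00512). HSP90B1 (GRP94, the HSP90 of the ER lumen; chromosome 12, 103930107 to 103953645, plus strand), with 2 ERSE matches, had 7293, 7891 and 9448 counts in NS and 10763, 10109 and 10832 in shACSS2. It rose from 423 ± 11.3 to 632 ± 33.9 CPM (mean ± SD of 3 libraries each; log2 change 0.58, SE 0.0888; edgeR adjusted p = 0.000618). For both genes every shACSS2 library lay above every NS library, in counts and in CPM.

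The largest rise of all 40 genes was in a small cofactor. SDF2L1 (chromosome 22, 21642261 to 21644298, plus strand), which keeps BiP and its J-domain partners bound to clients, had 677, 733 and 624 counts in NS and 926, 1090 and 1054 in shACSS2. This was a rise from 35.4 ± 5.7 to 61.1 ± 4.85 CPM (mean ± SD of 3 libraries each; fold 1.73; log2 change 0.79, SE 0.123; edgeR adjusted p = 0.000691), with NS replicate 3 the lowest library at 28.8 CPM. CRELD2, an ER-resident protein induced by stress, had 786, 865 and 884 counts in NS and 886, 1090 and 1055 in shACSS2 (log2 change 0.46, SE 0.106; edgeR adjusted p = 0.00853). The ERSE of CRELD2 also lies in the window of its neighbour ALG12, transcribed the other way, whose log2 change was 0.08 (SE 0.115; edgeR adjusted p = 0.672). CRELD2 and ALG12 overlap by 168 exonic bases on opposite strands, and whether reads were counted by strand is not stated in any source used.

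The J-domain cochaperones, which deliver clients to BiP and start its ATPase cycle, did not move alike. DNAJB9 (ERdj4) had 247, 313 and 282 counts in NS and 434, 328 and 355 in shACSS2, and shACSS2 replicate 1 was the highest library at 27.0 CPM against 20.1 and 19.9 CPM in replicates 2 and 3. It rose with a log2 change of 0.62 (SE 0.147; edgeR adjusted p = 0.0105). DNAJB9 shares 183 exonic bases with THAP5 and 99 with PNPLA8 on the opposite strand. Their mean counts were 1007.0 and 678.0, against 326.5 for DNAJB9, and the part of this overlap in its value was not tested. DNAJB11 (ERdj3) had 590, 663 and 665 counts in NS and 743, 745 and 739 in shACSS2 and rose by 0.42 on the log2 scale (SE 0.106; edgeR adjusted p = 0.0132). DNAJB11 shares 381 exonic bases with TBCCD1 on the opposite strand. The mean count of TBCCD1 was 325.8, against 690.8 for DNAJB11, and the part of this overlap was not tested either. DNAJC10 (ERdj5), which also reduces disulfides and is the most abundant member here that did not pass, had 2054, 2361 and 2517 counts in NS and 2414, 1952 and 2129 in shACSS2 (log2 change 0.12, SE 0.106; edgeR adjusted p = 0.462). With a correction for GC content and length its value was 0.40 and it was called higher (edgeR adjusted p = 0.0011). DNAJC3 (p58IPK) was the member of this system with a negative value, −0.27 (SE 0.103; edgeR adjusted p = 0.0852), and its CPM in NS (43.9 to 45.1) lay above that in shACSS2 (34.78 to 40.35). Without shACSS2 replicate 1, DNAJC3 was called lower at −0.33 (edgeR adjusted p = 0.0129), and with library totals at −0.34 (edgeR adjusted p = 0.0334).

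Of the nucleotide exchange factors of BiP, HYOU1 (GRP170) had 3379, 3776 and 3749 counts in NS and 3467, 3899 and 4357 in shACSS2. The counts overlapped, but once library size and composition were taken into account the groups did not, at 173 to 200 CPM against 216 to 244 CPM (log2 change 0.31, SE 0.0957; edgeR adjusted p = 0.0382). SIL1, the other exchange factor, had a log2 change of 0.19 (SE 0.117) with overlapping groups. MANF, a secreted ER protein that binds BiP, ran from 40.3 to 51.6 CPM in NS and from 53.7 to 63.1 CPM in shACSS2 without overlap, and did not pass the test (log2 change 0.28, SE 0.116; edgeR adjusted p = 0.107). The calls of HYOU1, DNAJB9 and DNAJB11 ended without NS replicate 1 (edgeR adjusted p = 0.13, 0.0587 and 0.0671) and without NS replicate 3 (0.182, 0.0643 and 0.0828). That of CRELD2 ended without NS replicate 3 (edgeR adjusted p = 0.0583). HYOU1 also lost its call without shACSS2 replicate 2 or 3 (0.103 and 0.133) and with library totals (0.0895).

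Both lectin chaperones rose, and neither enzyme of the glycan check passed the test. CALR (calreticulin, the soluble lectin; ENSG00000179218, chromosome 19, 12938578 to 12944489, plus strand), whose promoter holds an ERSE, had 11198, 13403 and 12108 counts in NS and 17170, 16064 and 17088 in shACSS2. It rose from 635 ± 75 to 1003 ± 58.8 CPM (mean ± SD of 3 libraries each; fold 1.58; log2 change 0.66, SE 0.101; edgeR adjusted p = 0.000623). CANX (calnexin, its membrane-bound relative; chromosome 5, 179678628 to 179730925, plus strand) had 17499, 20316 and 22806 counts in NS and 25008, 21637 and 23534 in shACSS2. CANX overlapped in counts and not in CPM (996 to 1073 against 1318 to 1557 CPM), with shACSS2 replicate 1 the highest library. It rose with a log2 change of 0.43 (SE 0.0949; edgeR adjusted p = 0.00704), and the call ended without NS replicate 1 (edgeR adjusted p = 0.061). UGGT1, which re-glucosylates misfolded glycoproteins so that the lectins bind them again, had 2254, 2347 and 2717 counts in NS and 1971, 2126 and 2258 in shACSS2, or 126 ± 2.22 and 126 ± 3.64 CPM (log2 change 0.01, SE 0.0891). Its paralog UGGT2 had a log2 change of 0.04 (SE 0.158) and its highest library was shACSS2 replicate 1, at 38.7 CPM against 24.4 and 24.8 CPM in replicates 2 and 3. Per kilobase of annotated exon, CALR (234 ± 27.6) and CANX (167 ± 6.37) had the highest levels of all 40 genes in NS, followed by HSPA5 (128 ± 11.7; all RPKM, SD, n = 3).

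**Figure D3:**
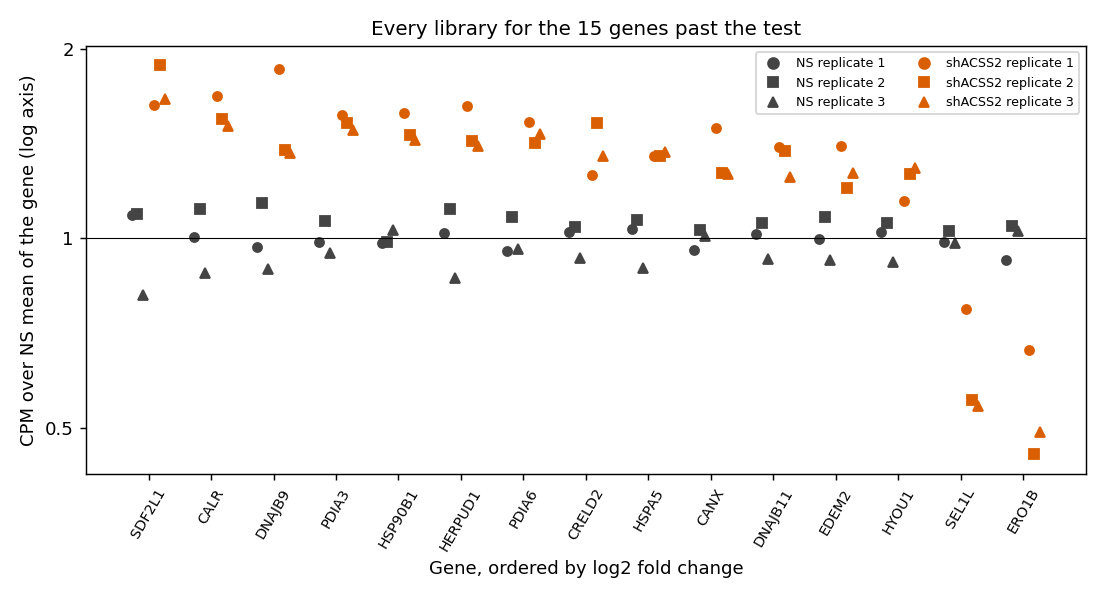
CPM of every library divided by the NS mean of the gene (log axis) for the 15 members past the test, with NS in grey, shACSS2 in orange and a symbol per replicate number. The groups do not overlap for any of the 15; shACSS2 replicate 1 is the highest library in 9 of the 13 genes that rose, and NS replicate 3 the lowest in 10.

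Among the genes of disulfide formation 2 rose, 1 fell and 4 missed the threshold (median log2 change 0.22). PDIA3 (ERp57, the isomerase that works with calnexin and calreticulin; chromosome 15, 43746392 to 43773279, plus strand) had 5402, 6273 and 6389 counts in NS and 7855, 7760 and 8256 in shACSS2. It rose from 311 ± 18.7 to 475 ± 13.4 CPM (mean ± SD of 3 libraries each; log2 change 0.61, SE 0.09; edgeR adjusted p = 0.000471). Its pseudogene PDIA3P1 had a mean of 299.7 counts, 4.29% of that of PDIA3, and reads may have been divided between them. PDIA6 (P5; chromosome 2, 10783391 to 10837977, minus strand) had 4385, 5343 and 5458 counts in NS and 6434, 6070 and 6842 in shACSS2, a rise of 0.56 on the log2 scale (SE 0.092; edgeR adjusted p = 0.00105).

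The other isomerases had smaller values. P4HB (the founding protein disulfide isomerase, also a subunit of prolyl 4-hydroxylase) had 7379, 8389 and 9152 counts in NS and 7592, 8710 and 9365 in shACSS2. In CPM its groups did not overlap, and the log2 change of 0.25 (SE 0.0902; edgeR adjusted p = 0.0657) missed the threshold. It was called higher by DESeq2 (adjusted p = 0.0337) and, in the edgeR fit, without shACSS2 replicate 1 (0.00631) and with the GC and length correction (0.00811). PDIA4 (ERp72) had a log2 change of 0.22 (SE 0.0887; edgeR adjusted p = 0.0922) with no overlap, and PDIA5 one of 0.18 (SE 0.117) with overlap. PDIA5 shares 490 exonic bases with SEC22A on the same strand, which leaves its value uncertain.

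The paralogous ERO1 oxidases, which reoxidise the isomerases, parted. ERO1B (ENSG00000086619, chromosome 1, 236215555 to 236281985, minus strand) had 843, 1028 and 1157 counts in NS and 553, 385 and 456 in shACSS2, the largest fall of the 40 genes. It fell from 51.9 ± 3.4 to 27.8 ± 5.8 CPM (mean ± SD of 3 libraries each; fold 0.536; log2 change −0.90, SE 0.133; edgeR adjusted p = 0.000472), and shACSS2 replicate 1 lay nearest to NS at 34.4 CPM. ERO1A had 115.8 to 132.5 CPM in NS and 111 to 128 CPM in shACSS2 (log2 change −0.06, SE 0.098). The count ratio of ERO1B to ERO1A within a library was 0.4, 0.469 and 0.402 in NS and 0.269, 0.212 and 0.224 in shACSS2. Per kilobase of annotated exon, ERO1A stood at 16.3 ± 1.15 RPKM and ERO1B at 9.68 ± 0.635 RPKM in NS, and at 15.6 ± 1.18 and 5.19 ± 1.08 RPKM in shACSS2 (SD, n = 3). ERO1B was the member with an ERSE that did not rise.

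No gene of the translocon passed the test (0 of 5; 0 of them also by DESeq2, and 1, SEC61A1, at an unadjusted p below 0.05 in the edgeR fit), and the median log2 change was 0.08. SEC61A1, the pore-forming subunit, had 4146, 4936 and 4963 counts in NS and 4467, 4801 and 4983 in shACSS2. Its CPM did not overlap (229 to 261 against 278 to 294), and the log2 change was 0.23 (SE 0.0913; edgeR adjusted p = 0.093), with a call as higher without shACSS2 replicate 1 (0.0268) and with the GC and length correction (0.0289). SEC61A1 shares 344 exonic bases with RUVBL1 on the opposite strand. The small subunits SEC61B and SEC61G had log2 changes of 0.16 (SE 0.124) and 0.08 (SE 0.106). SEC62 and SEC63, which assist post-translational entry, had values of −0.08 (SE 0.11) and 0.04 (SE 0.0904), all with overlapping groups. The translocon genes took 0.0626 to 0.0652% of the counts in NS and 0.0632 to 0.0679% in shACSS2.

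**Figure D4:**
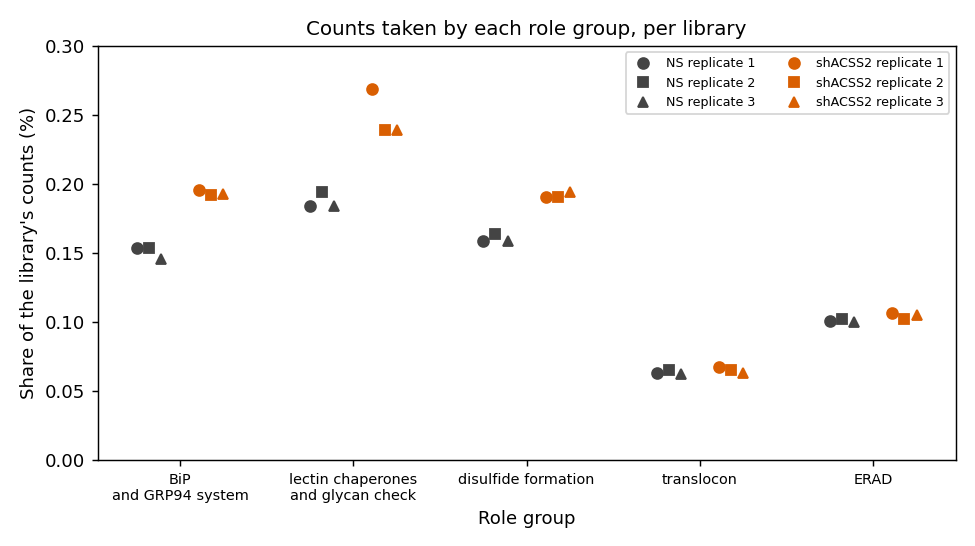
Share of each library's total counts taken by the genes of each role group (per cent, linear axis from 0; NS in grey, shACSS2 in orange; a symbol per replicate number). The BiP and GRP94 system lies at 0.146 to 0.154% in NS and 0.192 to 0.196% in shACSS2, while the ranges of the translocon overlap.

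In ERAD, 2 of 13 genes rose, 1 fell and 10 missed the threshold (median log2 change 0.12). HERPUD1 (chromosome 16, 56932048 to 56944863, plus strand), a membrane protein that recruits clients to the HRD1 complex and whose promoter holds an ERSE-II, had 892, 1051 and 934 counts in NS and 1301, 1163 and 1246 in shACSS2. It rose from 49.8 ± 6.29 to 74.0 ± 6.13 CPM (mean ± SD of 3 libraries each; log2 change 0.57, SE 0.113; edgeR adjusted p = 0.00353). EDEM2, which starts the trimming of mannose that marks glycoproteins for disposal, had 439, 513 and 502 counts in NS and 565, 493 and 570 in shACSS2 (log2 change 0.37, SE 0.114; edgeR adjusted p = 0.0353). The call of EDEM2 ended when NS replicate 1, NS replicate 3 or shACSS2 replicate 3 was left out (0.135, 0.161 and 0.0758), with library totals (0.0772) and with a correction for GC content and length (0.0506). Its relatives EDEM1 and EDEM3 had log2 changes of −0.02 (SE 0.104) and −0.23 (SE 0.104). The groups of EDEM3 did not overlap (61.9 to 67.1 CPM in NS, 48.98 to 60.15 CPM in shACSS2), and it was called lower without shACSS2 replicate 1 (edgeR adjusted p = 0.018).

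The core of the HRD1 complex was uneven. SEL1L (ENSG00000071537, chromosome 14, 81471549 to 81533861, minus strand), the adaptor that stabilises the HRD1 ligase, had 1417, 1587 and 1744 counts in NS and 1012, 740 and 790 in shACSS2. It fell from 81.6 ± 1.91 to 50.8 ± 10.6 CPM (mean ± SD of 3 libraries each; fold 0.622; log2 change −0.68, SE 0.125; edgeR adjusted p = 0.00219), and shACSS2 replicate 1 was again the nearest to NS, at 63.0 CPM. SYVN1, the HRD1 ligase itself, had 42.5 to 46.3 CPM in NS and 44.0 to 53.5 CPM in shACSS2 (log2 change 0.09, SE 0.108). The count ratio of SEL1L to SYVN1 was 1.9, 1.88 and 1.74 in NS and 1.41, 1.03 and 0.827 in shACSS2. SYVN1 shares 398 exonic bases with FAU on the same strand, so its level is uncertain.

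The other ERAD genes did not pass the test. VCP, the cytosolic ATPase that pulls clients out of the membrane, had 6288, 6835 and 7290 counts in NS and 6612, 6843 and 7503 in shACSS2. Its CPM did not overlap (336 to 361 against 412 to 420), with a log2 change of 0.24 (SE 0.0871; edgeR adjusted p = 0.0636) and a call as higher by DESeq2 (adjusted p = 0.0294) and, in the edgeR fit, without shACSS2 replicate 1 (adjusted p = 0.0168) and with the GC and length correction (0.0116). The lectins OS9 and ERLEC1, which read trimmed glycans, had log2 changes of −0.02 (SE 0.0949) and 0.27 (SE 0.114), and SELENOS, an anchor for VCP, one of 0.28 (SE 0.118). The derlins, rhomboid-like proteins of the exit channel, had values of 0.19 (DERL1, SE 0.102), 0.12 (DERL2, SE 0.116) and 0.12 (DERL3, SE 0.31). The groups of DERL1 did not overlap, and it was called higher with the GC and length correction (edgeR adjusted p = 0.0375). DERL3 had 24 to 63 counts in a library, and 77% of its exonic length overlaps SMARCB1 on the opposite strand, so its reads cannot be assigned with certainty.

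A 7-base sequence that is frequent in the 3′ UTRs of genes lower in these shACSS2 libraries, ATGCTCA or TGCTCAA, was looked for in the longest annotated 3′ UTR of each member (GENCODE v29). It had been picked from fold changes of these libraries, so its shares describe and do not test. It was present in 8 of 40 members, against 18.0% of all genes tested with a 3′ UTR, 43.9% of those that were lower and 6.75% of those that were higher. Both members that fell held it, as did 0 of the 13 that rose and 6 of the 25 that did not pass. The sites of the members that fell are shown with 7 bases on either side, the match in capitals.

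ERO1B, 3′ UTR position 126: aatttaaATGCTCActtgaat
SEL1L, 3′ UTR position 2386: taaaataATGCTCAAtacttac

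The other 6 holders were UGGT1, ERO1A, DERL2, DERL3, DNAJC10 and MANF, each with TGCTCAA as its first match and log2 changes from −0.06 (ERO1A) to 0.28 (MANF). Among members, a first match that begins with ATGCTCA was present in ERO1B and SEL1L, and that of SEL1L, ATGCTCAA, holds both forms. The shares over all genes were counted for both forms together, so no share of this form is given. The form of later matches was not recorded, and DNAJC10 and DERL3 held 3 sites each. The median 3′ UTR length was 867 bases in members that rose, 4192 in the 2 that fell and 1316 in those that did not pass. Over all genes tested with a 3′ UTR it was 1392 bases, with 2228 in those lower and 938 in those higher. The shares above were not adjusted for length. Which 3′ UTR form these cells express was not examined, and the part of the sequence in the falls of ERO1B and SEL1L was not tested.

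Around the 40 genes, 119 other ER genes in 5 lists were measured, of which 21 rose, 6 fell and 92 missed the threshold (median log2 change 0.15). For these counts and those of the single lists, the shares over all genes tested were 7.48% higher and 9.64% lower. These lists too were chosen with earlier results of these data known, so the comparison describes and does not test. In targeting and translocation, 4 of 20 rose and 0 fell: SRPRB, a subunit of the signal recognition particle receptor (log2 change 0.43, SE 0.128), the signal peptidase subunits SEC11C (0.41, SE 0.109) and SEC11A (0.40, SE 0.0974), and SSR3 of the translocon-associated TRAP complex (0.31, SE 0.101). In the ER membrane protein complex, an insertase for membrane proteins, 3 of 10 rose and 1 fell. Its subunit EMC2 fell by 0.71 on the log2 scale (SE 0.121; edgeR adjusted p = 0.00136), from 30.7 ± 0.49 to 18.8 ± 2.59 CPM (SD, n = 3 each), while EMC7, EMC3 and EMC8 had values of 0.43 (SE 0.12), 0.38 (SE 0.121) and 0.38 (SE 0.112).

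Of 37 other folding enzymes 6 rose and 1 fell. DNAJC1, another J-domain protein of the ER membrane, had a log2 change of 0.50 (SE 0.108), KDELR3, a receptor that returns escaped chaperones to the ER, one of 0.44 (SE 0.113) and PRDX4, an ER peroxiredoxin, one of 0.42 (SE 0.125). PDIA2, an isomerase best known from pancreas, fell by 0.70 (SE 0.193) from a low level of 9.23 ± 1.82 CPM. Of 35 other ERAD genes 7 rose and 1 fell. YOD1, a deubiquitinase that works with VCP, had 920, 1090 and 1079 counts in NS and 1811, 1239 and 1390 in shACSS2 (log2 change 0.74, SE 0.136; edgeR adjusted p = 0.00237). The ubiquitin ligase RNF139 and the ERAD factors AUP1 and TMUB1 had values of 0.47 (SE 0.113), 0.43 (SE 0.0956) and 0.43 (SE 0.104).

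The sensors of the unfolded protein response did not pass the test at the RNA level in the fit reported here. ATF6 had a log2 change of 0.28 (SE 0.102; edgeR adjusted p = 0.0712), ERN1 (IRE1) one of −0.17 (SE 0.14) and EIF2AK3 (PERK) one of −0.36 (SE 0.145; edgeR adjusted p = 0.102). With the GC and length correction ATF6 was called higher (0.34, edgeR adjusted p = 0.00169) and EIF2AK3 lower (−0.37, 0.0373), and EIF2AK3 was also called lower without shACSS2 replicate 1 (−0.44, 0.0368). XBP1, whose mRNA is spliced by IRE1, stood at 98.3 ± 8.61 and 112 ± 4.64 CPM (mean ± SD of 3 libraries each; log2 change 0.19, SE 0.0976; edgeR adjusted p = 0.201), and counts per gene do not show its splicing. ATF4 had a value of 0.20 (SE 0.0958) and its target DDIT3 (CHOP) one of 0.40 (SE 0.143; edgeR adjusted p = 0.0678), with a call as higher without shACSS2 replicate 1 (0.0194). ATF6, XBP1, ATF4 and DDIT3 each had shACSS2 libraries that lay above all NS libraries in CPM, and those of EIF2AK3 lay below all NS libraries. In the whole list, 6 genes were higher and 4 lower without overlap, where 17.6% of all genes were higher and 18.7% lower. In this list of 17 genes 1 rose and 3 fell: TRIB3, a pseudokinase induced by ATF4, at 0.33 (SE 0.108; edgeR adjusted p = 0.0447), CREB3L2 at −1.34 (SE 0.0972), MBTPS2, the protease that completes the cleavage of ATF6, at −0.58 (SE 0.113; edgeR adjusted p = 0.00328), and CREB3L4 at −0.54 (SE 0.146; edgeR adjusted p = 0.0195). The 7-base sequence was present in the 3′ UTRs of 15 of the 119 other ER genes, against 18.0% of all genes tested with a 3′ UTR. It was held by 3 of the 6 that fell (EMC2, MBTPS2 and CREB3L2, not PDIA2, TRIM13 or CREB3L4) and 0 of the 21 that rose. Of the 92 that missed the threshold 12 held it, EMC10 among them at 0.24. Over all genes tested, 43.9% of those lower and 6.75% of those higher held the sequence, without adjustment for 3′ UTR length. As it had been picked from fold changes of these libraries, the split by call is no test. Of the 20 genes named from these lists for their call, those of CREB3L2, YOD1, EMC2 and MBTPS2 held under every alternative, while the other 16 ended without NS replicate 1 (edgeR adjusted p from 0.0577 to 0.199) and 14 of the 20 ended without NS replicate 3 (0.0501 to 0.199).

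For the 40 genes, 7 of the 13 rises and both falls held under all 16 alternatives tried: HSPA5, HSP90B1, SDF2L1, CALR, PDIA3, PDIA6 and HERPUD1 rose, and ERO1B and SEL1L fell. With the correction for GC content and length, chosen after the data were seen, 12 of the 13 rises and both falls held, and the median of the 40 was 0.17. Without shACSS2 replicate 1, 18 members were called higher and 4 lower, PDIA4 (edgeR adjusted p = 0.0305) and SIL1 (0.0322) among the additions. Without NS replicate 1 or NS replicate 3, 8 were called higher and 2 lower in each case. When libraries were scaled by their totals alone, 11 rose and 3 fell, with a median of 0.14 against −0.07 over all genes.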

How the data were processed

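RNA-seq was measured in 6 libraries, 3 NS and 3 shACSS2. The deposited values are raw read counts per gene; per the submitters' processing notes, the tools were fastp, HISAT2 2.0.5 and featureCounts 1.5.0-p3 and the build hg19, with DESeq2 listed as well. All 58735 gene IDs are in GENCODE v29 (GRCh38), whose coordinates are given here. No source used here gives the strand setting.

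Counts were tested with edgeR 4.0.16 (TMM factors, filterByExpr, robust quasi-likelihood F test) over 16210 genes, with Benjamini-Hochberg adjustment and a threshold of 0.05. The SE is the log2 fold change divided by the square root of F. The fit was checked on simulated counts. Promoters came from RefSeq (GRCh38.p14) and 3′ UTRs from GENCODE v29. The alternatives were other scalings and filters, DESeq2 1.42.0, limma-voom (limma 3.58.1), a threshold of 0.01, a replicate block, each library left out, and a GC and length correction added after seeing the data.

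Described in full are members past the test and, per role, the most abundant one that did not pass; from each other list, up to 4 called genes with the largest change. Members, lists and the 3′ UTR sequence were chosen with earlier results of these data known. The value of 1 marker gene is not reported here.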

Additional observations from a re-analysis of the deposited data

How the results depend on the processing

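Among the 40 genes, 13 rises and 2 falls were also counted with RLE and upper quartile factors, with other filters, with limma-voom and with the replicate block, and no gene past the test changed sign under any alternative. DESeq2 gave 15 and 2, library totals 11 and 3, a threshold of 0.01 gave 9 and 2, and the GC and length correction 17 and 3. With 1 library left out, the rises ran from 8 to 18 and the falls from 2 to 4. For the 119 other ER genes (21 rises, 6 falls), the threshold of 0.01 gave 5 and 3, the GC and length correction 40 and 10, and leaving out 1 library 2 to 29 rises and 3 to 9 falls. Over all genes (1213 higher, 1563 lower) the counts were 330 and 679 at 0.01, 733 and 2107 with library totals, 2228 and 2080 with the GC and length correction, and 309 to 1837 and 708 to 2094 with 1 library left out. With library totals 25.8% of calls over all genes were higher against 43.7% as reported. The causes of these shifts were not tested. The log2 fold change of ACSS2 ran from −2.06 to −1.85 with 1 library left out.

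The replicate numbers gave no sign of pairing the libraries, which does not exclude a pairing. Deviations of same-numbered libraries correlated at −0.0428, −0.0664 and 0.112 across genes, and those of different-numbered libraries at −0.123 to 0.158. With the replicate block 1282 genes were higher and 1638 lower, the members' calls did not change, and among the other ER genes those of ERP44 (adjusted p = 0.0605), TRIM13 (0.0578) and TRIB3 (0.0503) ended in the edgeR fit.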

Other observations

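Outside the 40 genes, 8 other genes tested held an ERSE in their promoter window. EIF2A, a translation initiation factor, was the one of TRIM5, EIF2A, SERP1, XBP1, ZNF17, FICD, ALG12 and TMEM120A to rise (log2 fold change 0.36, SE 0.0942; edgeR adjusted p = 0.0177). TRIM5 had a value of 0.44 (edgeR adjusted p = 0.054) and SERP1, which stabilises membrane proteins at the translocon, one of 0.29 (edgeR adjusted p = 0.0534). FICD, the enzyme that AMPylates BiP, had a value of 0.13 (edgeR adjusted p = 0.742). An ERSE-II was held by 9 other tested genes, of which SHCBP1 rose (log2 fold change 0.44; edgeR adjusted p = 0.00921) and GYS1 (−0.33; 0.0439) and PLS3 (−0.36; 0.0193) fell. Over these 17 genes 2 rose and 2 fell, with a median log2 fold change of 0.13, where of the 11135 genes without either element 944 rose and 1121 fell, with a median of 0.02. Over all 26 tested genes with either element 10 rose and 3 fell, and 8 of those rises and 1 of those falls are among the 40 genes.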
